A study of Homo sapiens with 6 samples.

Results

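Interferon-stimulated effector genes encode the proteins through which interferon blocks the steps of a viral infection. The 46 genes described here were chosen by name, as probe sets annotated to 1 gene symbol that is on a list of such effectors. No cut-off on their values was used, but the list was chosen with earlier results of these data known. All 46 had such a probe set on the array, 75 probe sets in all. A probe set was taken as expressed where it lay above the median of all values (52.5, in arbitrary intensity units) on at least 3 of the 6 arrays, and 34 genes with 47 probe sets met this, of 7035 genes and 11303 probe sets in the whole table. The other 12 genes were below it and are described at the end.

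RNA came from PC3, a human prostate cancer cell line, grown in RPMI medium. Of the 6 arrays, 3 were labelled as PC3 cells overexpressing human PSMA (replicates 4 to 6), transfected with the pLNCX-PSMA plasmid. The other 3 were labelled control (replicates 1 to 3), and their labels name both wild type and the vector alone. By the labels' protocols both cell populations went through FUGENE 6 transfection and puromycin selection, so both are selected populations. For all 6 arrays the protocols give 3 ug of plasmid DNA, 2 ug of FUGENE, 30 min of transfection and 72 h of recovery. Whether either population is 1 clone is not given in the sources used here. PSMA is prostate-specific membrane antigen, a cell-surface carboxypeptidase encoded by FOLH1. Nothing in the labels says that interferon or a virus was added.

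In the known pathway, type I and type III interferons bind receptors on the cell surface, and the kinases JAK1 and TYK2 then pass the signal on. A complex called ISGF3, which contains IRF9, forms and binds a DNA element named ISRE in the promoters of the effector genes. Interferon gamma acts mainly on another element, named GAS. The effectors fall into families: OAS enzymes sense double-stranded RNA and switch on RNA decay, MX proteins and GBPs are large GTPases, IFIT proteins bind abnormal viral RNA ends, and IFITM proteins hinder the fusion of viral and cell membranes.

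The directions below follow the labels, and the transfected gene goes against them. A FOLH1 probe set with no paralog in its annotation gave 24.4, 32.0 and 28.0 on arrays labelled PSMA, against 61.5, 59.7 and 60.4 on arrays labelled control. The probe sets shared by FOLH1 and its close paralog FOLH1B read at most 15.1 on arrays labelled PSMA and at least 128.7 on arrays labelled control. "Higher" and "lower" therefore mean higher or lower on the arrays labelled PSMA, and each sign would turn if the 2 labels were exchanged. Log2 values correlated at 0.9975 to 0.9981 between arrays of 1 group and at 0.9875 to 0.9879 between groups (a description over all probe sets, with no test). The epithelial markers KRT8, KRT18, KRT19, EPCAM and CDH1 were all expressed. By the limma fit described below, 4 of 5 were lower on arrays labelled PSMA, with log2 differences of -0.31 to -0.40. Of all genes tested, 33.5% were lower. The probe sets of KLK3, KLK2 and TMPRSS2, which mark luminal prostate cells, read at most 36.9. None of 12 leucocyte markers on the array was expressed, and their summed level was 179 to 187 on arrays labelled PSMA and 168 to 178 on arrays labelled control. PTPRC, the common leucocyte antigen, lay at 6.93 on average on arrays labelled PSMA and 7.38 on arrays labelled control. ITGAM, with the widest log2 gap of these markers, averaged 28.5 on arrays labelled PSMA and 21.1 on arrays labelled control. Of 11 fibroblast and endothelial markers, COL1A1 and PECAM1 were expressed without passing the threshold. Below the filter, LUM averaged 6.26 on arrays labelled PSMA and 35.1 on arrays labelled control, and KDR averaged 29.9 on arrays labelled PSMA and 10.2 on arrays labelled control; the part of such markers in the results below was not tested.

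The effector genes fell more often than they rose on arrays labelled PSMA, but they did not move as a block. Differences were fitted with limma on log2 values over all genes, with 1 probe set a gene and Benjamini-Hochberg adjustment at 0.05. Of the 34 expressed members, 18 were lower, 7 were higher and 9 did not pass; of all 7035 genes tested, 33.5% were lower and 30.1% higher. Between them the 25 called members made up 73.5% of the expressed members, near the 63.6% of all genes that passed. The groups did not overlap in 25 of the 34 members, beside 69.5% of all genes. By probe set, 22 of the 47 were lower and 13 higher, against 32.4% and 28.2% of all probe sets. The median log2 difference of the expressed members was -0.13, and over all genes tested it was -0.01. In bulk RNA like this, fewer cells that express a gene and less of its RNA in each cell cannot be told apart.

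The large differences were mostly decreases. A decrease of at least 2-fold past the threshold was found in 7 of the 34 members (20.6%), against 2.52% of all genes, and such an increase in 1, against 1.89%. With limma set against a minimum fold of 1.5, 7 members were lower and 2 higher, where 3.91% and 3.57% of all genes were. Of the expressed members, 6 (MX1, IFI44L, IFITM1, GBP1, SAMD9 and HERC5) were not above the median on all 6 arrays. Of these, 4 (MX1, IFI44L, GBP1 and SAMD9) passed the filter only through the arrays labelled control and so had to differ. Among the 28 members above the median on all 6 arrays, 13 fell and 6 rose, beside 33.7% and 29.8% of the genes that met the same rule, and their median was -0.08. Of these 28, 2 were lower by at least 2-fold (IFI6 and RIGI), where 1.75% of such genes were.

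**Figure D1:**
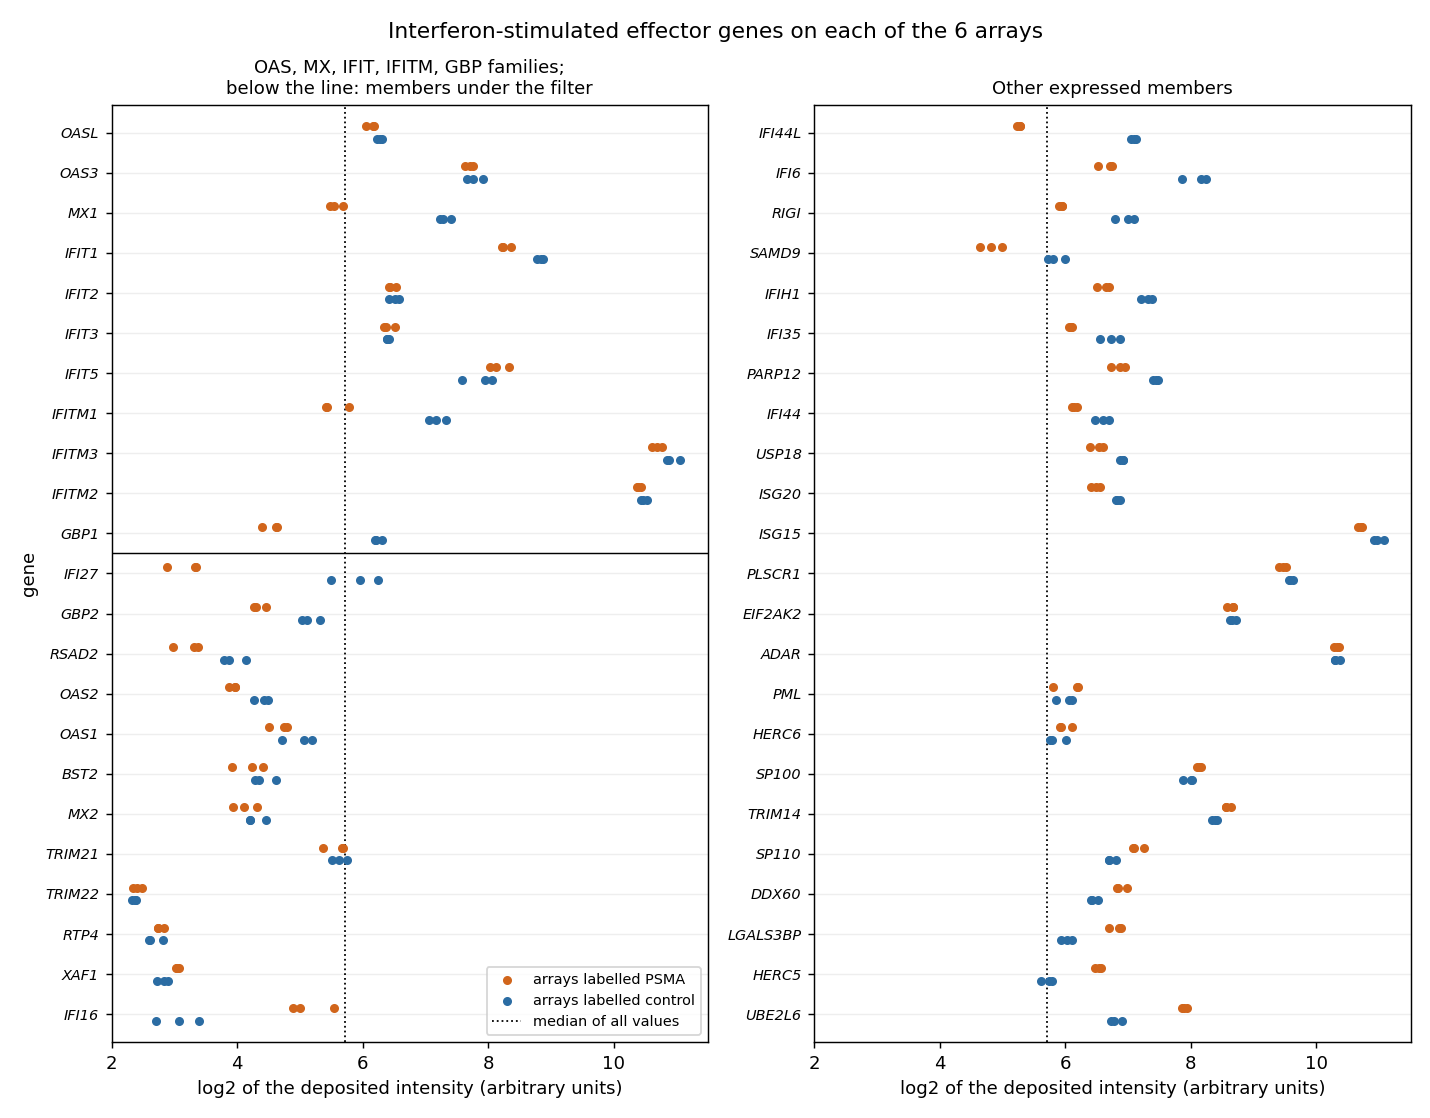
Log2 of the deposited intensity (x axis, arbitrary units) of each of the 46 effector genes (rows), with 1 point for each array, arrays labelled PSMA in orange and arrays labelled control in blue. The dotted line is the median of all values, and the 12 genes below the horizontal line were not expressed by the filter; among expressed members, IFI44L, MX1, GBP1, IFITM1 and IFI6 show the widest gaps with the arrays labelled PSMA on the left and UBE2L6 the widest on the right, and IFI27 and IFI16 show wider ones below the line.

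**Figure D2:**
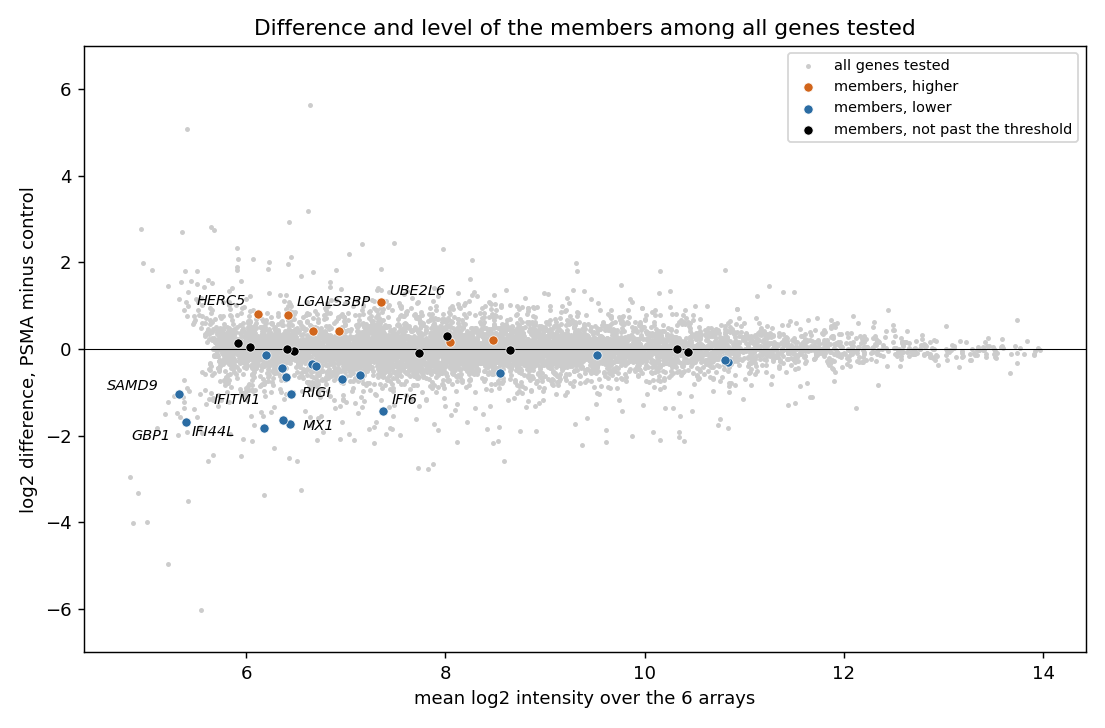
Log2 difference, PSMA minus control (y axis), against the mean log2 intensity over the 6 arrays (x axis) for all 7035 genes tested in grey and the 34 expressed effector genes in colour. The 7 members lower by at least 2-fold lie at mean levels in the lower part of the range, whereas bright members such as ADAR and IFITM2 lie near 0.

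Most effector promoters carried the element that ISGF3 binds. In the RefSeq promoter windows of GRCh38.p14, which run from 250 bases before to 50 bases after each annotated start, 37 of the 46 members had a window. An ISRE core, read as GAAA, any 2 bases and GAAA on either strand, with overlapping matches counted, was in a window of 27 of them (73.0%), against 4.38% of all genes in that table and 3.86% of the tested genes with a window. The GAS motif TTCNNNGAA was in 9 of 37 (24.3%), against 9.38% of all genes. The 22 expressed members with an ISRE core held 14 that fell, 4 that rose and 4 that did not pass, with differences from -1.83 to 0.82. The 7 without one held 2 that fell, 3 that rose and 2 that did not pass, from -1.03 (RIGI) to 1.09 (UBE2L6). The members were listed as interferon-stimulated, and interferon acts through these elements, so their high shares are not a result of these data. A match is only a description of these letters.

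The same element thus stood before genes that fell, genes that rose and genes that did not pass, as the following windows show. They run from 200 bases before to 10 bases after the annotated start, 5' to 3' on the strand of the gene in GRCh38.p14, with each ISRE core in capitals. The members that fell are IFI44L (chr1:78620248-78620457, plus strand), IFI6 (chr1:27672183-27672392, minus strand), IFITM1 (chr11:313840-314049, plus strand) and IFIT1 (chr10:89392423-89392632, plus strand).
IFI44L: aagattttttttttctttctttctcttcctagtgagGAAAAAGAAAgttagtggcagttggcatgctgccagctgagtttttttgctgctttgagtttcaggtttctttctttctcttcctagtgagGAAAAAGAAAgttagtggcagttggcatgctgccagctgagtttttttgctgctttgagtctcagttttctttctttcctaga
IFI6: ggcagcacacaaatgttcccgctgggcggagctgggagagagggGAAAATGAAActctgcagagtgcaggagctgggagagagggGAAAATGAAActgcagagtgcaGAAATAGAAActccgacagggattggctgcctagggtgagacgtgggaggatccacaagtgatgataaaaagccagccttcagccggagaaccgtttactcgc
IFITM1: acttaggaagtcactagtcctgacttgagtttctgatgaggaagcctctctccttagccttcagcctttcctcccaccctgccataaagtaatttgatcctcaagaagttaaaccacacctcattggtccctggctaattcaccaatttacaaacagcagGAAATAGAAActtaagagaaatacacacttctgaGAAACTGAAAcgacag
IFIT1: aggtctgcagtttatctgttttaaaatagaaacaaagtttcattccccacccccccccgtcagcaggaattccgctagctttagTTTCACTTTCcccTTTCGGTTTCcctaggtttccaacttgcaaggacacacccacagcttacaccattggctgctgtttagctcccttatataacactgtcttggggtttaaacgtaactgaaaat
The members that did not pass the threshold are OAS3 (chr12:112938274-112938483, plus strand) and IFIT5 (chr10:89414368-89414577, plus strand).
OAS3: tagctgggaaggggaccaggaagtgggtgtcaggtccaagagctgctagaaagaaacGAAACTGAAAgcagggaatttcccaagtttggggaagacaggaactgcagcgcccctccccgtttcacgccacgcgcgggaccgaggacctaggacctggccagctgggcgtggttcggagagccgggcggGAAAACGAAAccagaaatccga
IFIT5: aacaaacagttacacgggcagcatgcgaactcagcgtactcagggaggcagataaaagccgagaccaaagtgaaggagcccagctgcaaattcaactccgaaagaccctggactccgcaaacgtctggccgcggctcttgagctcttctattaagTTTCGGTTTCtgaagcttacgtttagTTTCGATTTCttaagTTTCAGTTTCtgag
The members that rose are DDX60 (chr4:168318743-168318952, minus strand) and HERC5 (chr4:88456919-88457128, plus strand).
DDX60: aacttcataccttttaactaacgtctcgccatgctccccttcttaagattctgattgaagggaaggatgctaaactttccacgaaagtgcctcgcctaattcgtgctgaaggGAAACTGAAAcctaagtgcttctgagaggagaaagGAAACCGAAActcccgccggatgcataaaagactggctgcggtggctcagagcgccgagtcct
HERC5: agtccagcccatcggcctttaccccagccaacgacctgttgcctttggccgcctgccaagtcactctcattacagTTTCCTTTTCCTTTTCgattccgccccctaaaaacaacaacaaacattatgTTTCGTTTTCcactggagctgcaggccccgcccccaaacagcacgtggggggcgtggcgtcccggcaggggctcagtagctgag
IFI6 has 3 cores and fell, and IFIT5 and HERC5 also have 3 each and did not fall. The 2 cores of IFI44L start at positions -164 and -73 from the annotated start. In HERC5, the cores at positions -125 and -119 overlap.

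**Figure D3:**
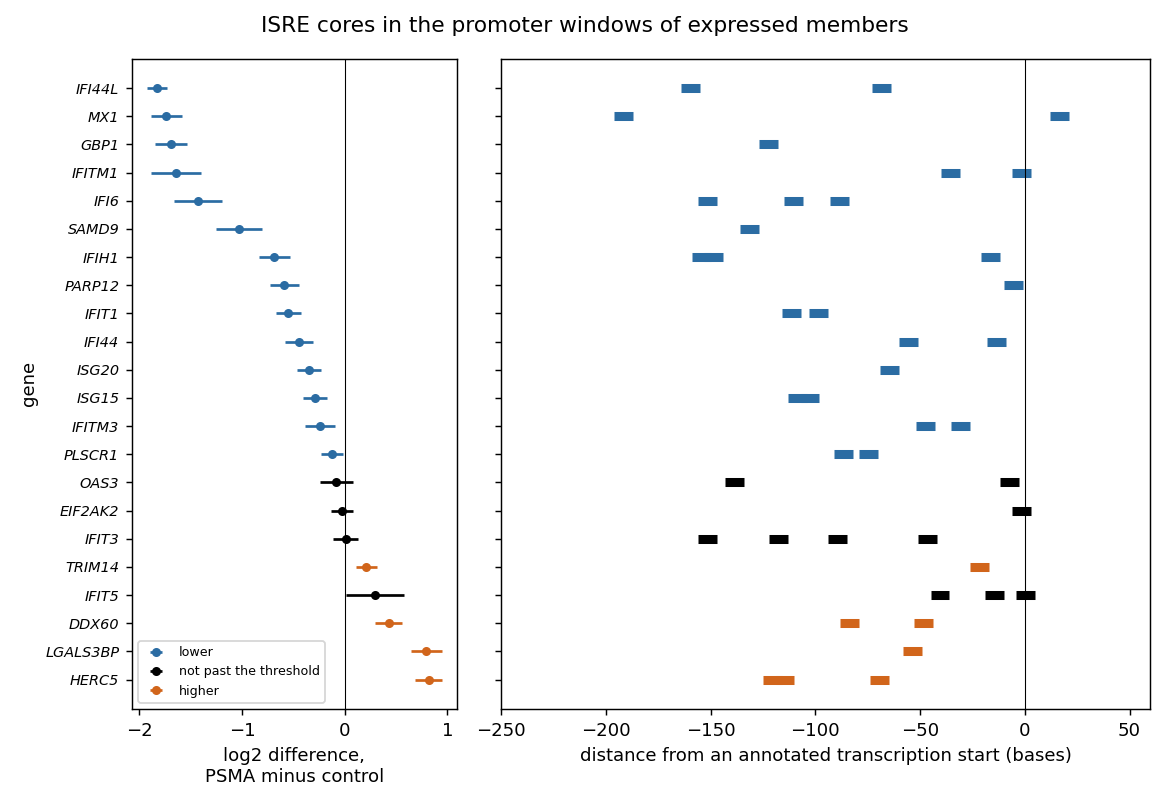
The 22 expressed effector genes with an ISRE core in a promoter window, ordered by log2 difference (left, PSMA minus control, with the 95% confidence interval from limma), and the positions of the cores relative to an annotated transcription start (right, in bases). Genes with several annotated starts show the cores of all their windows on 1 line; cores stand before genes that were lower (blue), higher (orange) and not past the threshold (black).

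The OAS family showed only small differences among its expressed members. OAS3, a main activator of the decay enzyme RNase L and the brightest of the family, read 198, 216 and 209 on arrays labelled PSMA, against 203, 216 and 242 on arrays labelled control. The groups overlapped, and the log2 difference of -0.08 (95% confidence interval -0.24 to 0.08) did not pass (limma adjusted p = 0.328). OASL, a relative without that enzyme activity that enhances RIG-I signalling, fell by 0.13 on the log2 scale (limma adjusted p = 0.0459), and its call was lost in 5 of the 6 fits that left out 1 array. The other expressed probe set of OASL fell by 0.38 (limma adjusted p = 0.011 by probe set). OAS1 and OAS2 were below the filter.

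Among the dynamin-like GTPases of the MX family, MX1, which traps the nucleocapsids of influenza and other viruses, fell. It read 51.5, 44.7 and 46.7 on arrays labelled PSMA, against 151, 156 and 170 on arrays labelled control. The groups were far apart, and all arrays labelled PSMA lay just under the median of all values. MX1 thus passed the filter only through the arrays labelled control. The decrease was 3.34-fold (log2 difference -1.74, SE 0.066, limma adjusted p = 1.75e-07). MX2, which blocks the nuclear import of HIV-1, was below the filter in both groups, at 17.5 ± 2.38 on arrays labelled PSMA and 19.6 ± 2.01 on arrays labelled control (SD, n = 3).

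The IFIT genes lie side by side on chromosome 10, and only IFIT1 of the 4 was called lower. IFIT1, which binds viral RNA that lacks a methylated cap, read 330, 301 and 299 on arrays labelled PSMA, against 457, 438 and 468 on arrays labelled control. The groups did not overlap, and the fall was 1.47-fold (log2 difference -0.55, SE 0.053, limma adjusted p = 3.22e-05). IFIT2 and IFIT3 join IFIT1 in 1 complex. IFIT2 read 92.7, 86.3 and 85.7 on arrays labelled PSMA, against 91.1, 85.9 and 95.3 on arrays labelled control, a log2 difference of -0.04 (95% confidence interval -0.17 to 0.08). IFIT3 read 83.1, 81.2 and 91.4 on arrays labelled PSMA, against 86.0, 84.1 and 84.1 on arrays labelled control, a log2 difference of 0.01 (-0.11 to 0.13). Both missed the threshold with overlapping groups. IFIT5, which binds RNA with 5' phosphates, read 321, 262 and 278 on arrays labelled PSMA, against 247, 267 and 191 on arrays labelled control, a log2 difference of 0.30 (limma adjusted p = 0.0628). Its other probe set passed, higher by 0.33 on the log2 scale (limma adjusted p = 0.00257 by probe set).

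The IFITM genes, a cluster on chromosome 11, split by member as well. IFITM1, which acts mainly at the cell surface, read 55.1, 42.6 and 43.2 on arrays labelled PSMA, against 134, 144 and 161 on arrays labelled control. The fall was 3.13-fold with no overlap (log2 difference -1.64, SE 0.107, limma adjusted p = 3.34e-06). IFITM3, which restricts influenza virus in endosomes and was the brightest of the family, read 1568, 1648 and 1748 on arrays labelled PSMA, against 1890, 1855 and 2127 on arrays labelled control. It fell by 0.24 on the log2 scale (limma adjusted p = 0.0109). IFITM2 read 1320, 1345 and 1384 on arrays labelled PSMA, against 1413, 1380 and 1479 on arrays labelled control; the groups overlapped and the log2 difference of -0.08 (95% confidence interval -0.18 to 0.03) did not pass. These genes are related in sequence. The probe sets of IFITM1 (_s_at) and of IFITM2 and IFITM3 (_x_at) carry suffixes that Affymetrix gives to sets that can match more than 1 transcript. A further probe set annotated to both IFITM1 and IFITM2 was not used. The separate values of the IFITM genes are therefore uncertain.

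Of the 2 GBP genes, GTPases best known from the response to interferon gamma, only GBP1 was expressed, and it passed the filter only through the arrays labelled control. GBP1, which coats bacteria and vacuoles in the cytosol, read 24.5, 21.1 and 24.8 on arrays labelled PSMA, against 79.6, 74.2 and 73.3 on arrays labelled control. The fall was 3.23-fold (log2 difference -1.69, SE 0.070, limma adjusted p = 2.68e-07), and its second probe set fell by 1.52. GBP2 was below the filter, at 20.3 ± 1.57 on arrays labelled PSMA and 35.6 ± 3.69 on arrays labelled control (SD, n = 3), with no overlap.

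The RNA sensors RIG-I and MDA5, which detect viral RNA in the cytosol, both fell. RIGI, which encodes RIG-I, read 61.7, 61.4 and 59.9 on arrays labelled PSMA, against 137, 128 and 110 on arrays labelled control. It was 2.04-fold lower (log2 difference -1.03, SE 0.075, limma adjusted p = 6.55e-06). IFIH1, which encodes MDA5, read 103, 90.9 and 100.3 on arrays labelled PSMA, against 167, 159 and 147 on arrays labelled control, and was 1.61-fold lower (limma adjusted p = 2.99e-05). Neither gene's groups overlapped. The related helicase gene DDX60 went the other way: it read 126, 115 and 113 on arrays labelled PSMA, against 85.3, 86.1 and 91.8 on arrays labelled control, and rose by 0.43 on the log2 scale (limma adjusted p = 0.000222).

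The double-stranded RNA enzymes ADAR and EIF2AK2 were bright, and neither passed on its brightest probe set. ADAR, which edits adenosine to inosine, averaged 1281 ± 33.1 on arrays labelled PSMA and 1281 ± 46.0 on arrays labelled control (SD, n = 3), and the 95% confidence interval of its log2 difference ran from -0.10 to 0.11. EIF2AK2, which encodes the kinase PKR, had a log2 difference of -0.03 (-0.14 to 0.08) on its brighter probe set, while its second probe set fell by 0.25 (limma adjusted p = 0.00115 by probe set).

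Genes of the ISG15 system moved in opposite directions. ISG15, a ubiquitin-like protein joined to other proteins and the brightest of the 46 members on arrays labelled control, read 1688, 1675 and 1615 on arrays labelled PSMA, against 1931, 1999 and 2161 on arrays labelled control, and fell by 0.29 on the log2 scale (limma adjusted p = 0.00133). USP18, the protease that removes ISG15 and also damps the type I interferon receptor, fell by 0.39 (limma adjusted p = 0.000416). UBE2L6, the conjugating enzyme for ISG15, read 232, 238 and 244 on arrays labelled PSMA, against 110, 106 and 119 on arrays labelled control. It rose 2.13-fold (log2 difference 1.09, SE 0.054, limma adjusted p = 7.14e-07) and had the largest increase of the expressed members. HERC5, the main ligase for ISG15, read 88.6, 93.2 and 95.1 on arrays labelled PSMA, against 53.4, 55.0 and 48.9 on arrays labelled control, and rose 1.76-fold (limma adjusted p = 4.78e-06). HERC6, its neighbour on chromosome 4, read 68.8, 60.6 and 61.2 on arrays labelled PSMA, against 55.3, 64.5 and 54.1 on arrays labelled control, with overlap and a log2 difference of 0.13 (95% confidence interval -0.04 to 0.31).

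Several effectors outside these families were also lower. IFI44L, whose product is little understood, read 37.5, 38.9 and 38.7 on arrays labelled PSMA, against 132, 140 and 137 on arrays labelled control, the most negative difference among expressed members (3.56-fold, log2 difference -1.83, SE 0.043, limma adjusted p = 1.56e-08). IFI6, which restricts flaviviruses at the endoplasmic reticulum, read 91.7, 108 and 104 on arrays labelled PSMA, against 232, 286 and 304 on arrays labelled control (2.70-fold lower, limma adjusted p = 5.76e-06). Both pairs of groups were far apart, but IFI44L passed the filter only through the arrays labelled control. SAMD9, which restricts poxviruses, read 31.8, 24.8 and 28.1 on arrays labelled PSMA, against 53.0, 63.4 and 56.1 on arrays labelled control (2.04-fold lower, limma adjusted p = 2.83e-05). SAMD9 also passed the filter only through the arrays labelled control. IFI35, a partner of the interferon-induced protein NMI, read 68.2, 68.7 and 67.0 on arrays labelled PSMA, against 106, 93.9 and 117 on arrays labelled control, and fell by 0.63 on the log2 scale (limma adjusted p = 0.00011). PARP12, an ADP-ribosyltransferase, read 124, 116 and 106 on arrays labelled PSMA, against 174, 169 and 178 on arrays labelled control, and fell by 0.59 (limma adjusted p = 5.33e-05). Smaller decreases were found in IFI44 (-0.44), the exonuclease gene ISG20 (-0.35) and the scramblase gene PLSCR1 (-0.13). The call of PLSCR1 was lost in 5 of the 6 fits that left out 1 array (limma adjusted p up to 0.122).

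SP110 and SP100, chromatin proteins of the nuclear bodies that PML builds, rose by 0.41 and 0.16 on the log2 scale (limma adjusted p = 0.000394 and 0.0234), each on all 3 of its expressed probe sets. For each gene, however, a probe set other than the brightest passed the filter only through the arrays labelled PSMA. That probe set had to read higher there. The call of SP100 was lost without PSMA replicate 4 (limma adjusted p = 0.0701) or 5 (0.0603). PML itself had a log2 difference of 0.06 (95% confidence interval -0.20 to 0.31), and its 3 expressed probe sets disagreed in sign with none past the threshold. TRIM14, an adaptor in RIG-I signalling, rose by 0.21 (limma adjusted p = 0.00337). LGALS3BP, a secreted glycoprotein that binds galectins, read 116, 104 and 119 on arrays labelled PSMA, against 69.1, 60.9 and 65.2 on arrays labelled control, and rose 1.73-fold (limma adjusted p = 1.44e-05). Over the 10 members with several expressed probe sets, 9 had the same sign on all of them and 7 the same call. These counts include probe sets of GBP1, SP100 and SP110 that passed the filter only through the group where they read higher.

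Members that lie side by side were also compared with each other, since they share their surroundings on the chromosome. In the RefSeq gene order of GRCh38.p14, 12 pairs of expressed members lay within 200 kb. The log2 ratio of the 2 genes on each array did not overlap between the groups in 9 of the 12 pairs, beside 63.3% of all 11047 pairs of tested genes within that distance. The 12 pairs share genes, since 6 come from the 4 IFIT genes and 3 from the 3 IFITM genes. With 3 arrays against 3, no pair can go below p = 0.1 in an exact two-sided permutation test (p = 0.1 for those 9, 0.133 adjusted over the 12 pairs). The log2 difference of IFITM1 minus that of IFITM2 was -1.57, and minus that of IFITM3 it was -1.40. IFI44 minus IFI44L gave 1.39, IFIT1 minus IFIT2 gave -0.51, and HERC5 minus HERC6 gave 0.68. IFIT2 and IFIT3 did not separate (difference -0.05, exact permutation p = 0.7).

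Other genes around a member gave a further reference, taken as the 5 nearest tested genes on each side that are not members. Of all genes tested, 30.1% were higher and 33.5% lower. Only some of the neighbourhoods are named here. Around SP100 and SP110 on chromosome 2, all 10 neighbours were higher (median log2 differences 0.51 and 0.54). Around PARP12 on chromosome 7, 9 of 10 were lower (median -0.35), and around the IFITM genes, near a chromosome end with only 6 tested neighbours counted, 5 were lower (median -0.38). Around UBE2L6, 7 of 10 were higher (median 0.20), and around GBP1, 7 were lower (median -0.23). Around IFI44L and IFI44, 7 of 10 were lower (median -0.26, lowest -1.55), and around MX1, 6 of 10 were lower (median -0.20). Around PLSCR1, which fell, 7 of 10 were higher (median 0.47). Around IFI27, below the filter with a log2 difference of -2.72, 8 of 10 were higher and 1 lower (median 0.50). The neighbours of IFI6 (median -0.05), RIGI (-0.04), IFIT1 (-0.05) and LGALS3BP (-0.04) went both ways, for example from -0.49 to 0.29 around IFI6. Those of HERC5 had a median of -0.16, the sign opposite to its own. The part of the neighbourhood in the differences of the members was not tested.

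**Figure D4:**
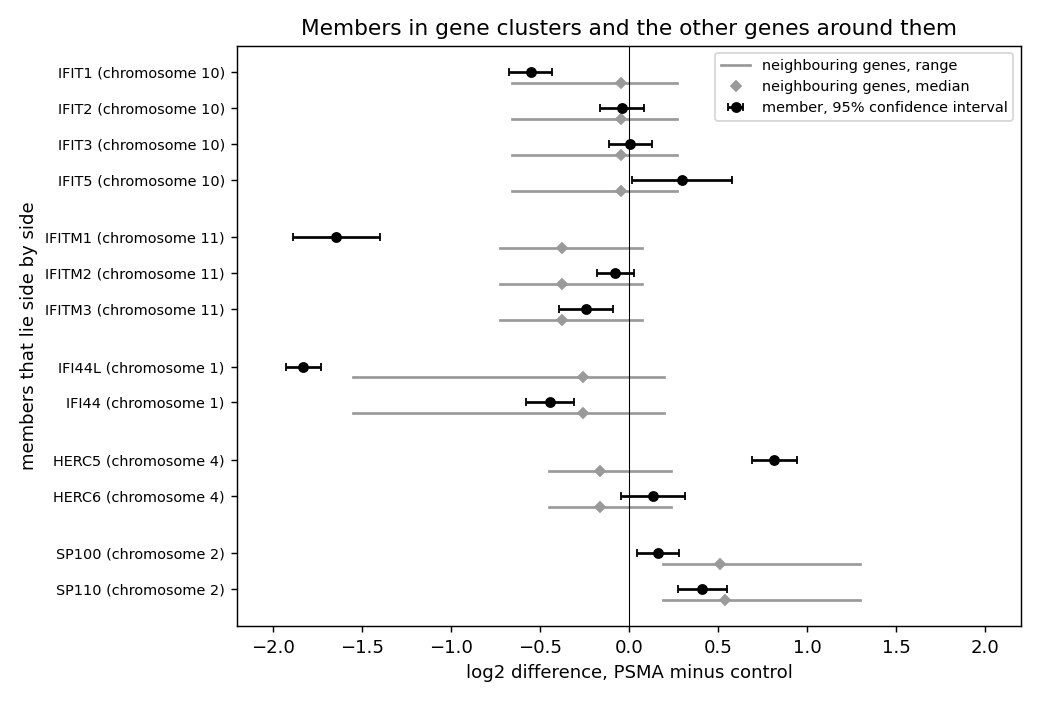
Log2 difference, PSMA minus control (x axis), of effector genes that lie side by side (black points, with the 95% confidence interval from limma), above the range (grey line) and median (grey diamond) of the nearest tested genes around them. IFITM1 and IFI44L lie left of the range of their neighbours, HERC5 right of it and IFIT5 (0.30) just right of it (0.27). SP110 lies within the range of its raised neighbours and SP100 (0.16) just below it (0.19).

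The genes that carry the interferon signal give the context of these values. Of 21 interferon genes listed, 14 had a single-gene probe set, none of them for a type III interferon, and all 14 were below the filter, 11 of them under the 25th percentile of the table (13.0) on every array, and the highest value was 29.8 (IFNA17). IFNB1 averaged 10.8 ± 1.38 on arrays labelled PSMA and 14.2 ± 1.43 on arrays labelled control (SD, n = 3). Of 13 expressed receptors and transducers 6 were lower, 2 higher and 5 not past the threshold, with a median of -0.03, beside 33.5% lower and 30.1% higher of all genes. IRF9, the DNA-binding part of ISGF3, read 54.9 to 58.1 on arrays labelled PSMA, against 203 to 230 on arrays labelled control (log2 difference -1.92, limma adjusted p = 5.21e-08). IRF7, which amplifies the response, fell by 1.34 and JAK2 by 0.43. The receptor genes IFNAR2 and IL10RB rose by 0.46 and 0.53, and IRF1, a factor of the interferon gamma response, was at 0.26 without passing (95% confidence interval 0.01 to 0.52, limma adjusted p = 0.0651).

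Sensors and adaptors other than the members, 6 expressed, had 2 lower, the adaptor TICAM1 (-0.47) and the kinase TBK1 (-0.25), and 1 higher, the kinase IKBKE (0.33). Among 9 feedback inhibitors, 4 rose and 1, the phosphatase PTPN6 (-0.18), fell. SOCS2, best known as an inhibitor of growth hormone signalling, had the largest increase of the 4, with 1457 ± 8.13 on arrays labelled PSMA and 520 ± 32.6 on arrays labelled control (SD, n = 3, log2 difference 1.49). The phosphatase PTPN1 rose by 0.45 and CISH by 0.37, while SOCS1 was below the filter. Antigen presentation genes, many of which interferon also induces, had 5 higher and 1 lower of 13, with a median of 0.02. These 3 lists stand beside 30.1% higher and 33.5% lower of all genes. PSMB9, an immunoproteasome subunit, rose 3.46-fold, TAP1 rose by 0.54 and PSMB8 by 0.51 on the log2 scale, and HLA-C fell by 0.14. PSMB9 averaged 84.6 on arrays labelled PSMA and 24.5 on arrays labelled control. It passed the filter only through the arrays labelled PSMA and so had to be higher, and it is counted among the 5 higher. The difference between these lists and the effector genes was not tested.

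The 12 members below the filter included wide gaps in both directions. IFI27, a mitochondrial protein much used as an interferon marker, read 10.1, 7.37 and 10.2 on arrays labelled PSMA, against 45.3, 62.2 and 75.7 on arrays labelled control. Its log2 difference was -2.72, and it missed the filter since only 2 arrays were above the median. IFI16, a nuclear DNA sensor, went the other way and read 32.0, 46.7 and 29.6 on arrays labelled PSMA, against 6.50, 10.5 and 8.40 on arrays labelled control. All 3 of its probe sets were higher on arrays labelled PSMA, by 1.52 to 2.77 on the log2 scale, with every value under the median of the table. The deposited values of dim probe sets depend on the authors' background correction, so these differences are less certain in size.

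The remaining dim members were RSAD2, which encodes viperin (-0.71), OAS2 (-0.46), OAS1 (-0.31), XAF1 (0.24), BST2, which encodes tetherin (-0.22), MX2, RTP4, TRIM21 and TRIM22, beside GBP2 (-0.81). RSAD2 averaged 9.38 ± 1.32 on arrays labelled PSMA and 15.4 ± 2.02 on arrays labelled control (SD, n = 3). XAF1, a binder of the apoptosis inhibitor XIAP, averaged 8.29 on arrays labelled PSMA and 7.03 on arrays labelled control, and TRIM22 and RTP4 were dimmer still. With no filter, 20 of all 46 members were lower (43.5%) and 8 higher (17.4%), while 19.3% of 11963 genes were lower and 19.3% higher. IFI27, GBP2, RSAD2 and OAS2 were then among those lower and IFI16 and XAF1 among those higher (limma adjusted p = 6.39e-05, 0.000403, 0.00391, 0.00172, 0.000289 and 0.0168, in that order).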

How the data were processed

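Each array gave 1 deposited intensity for each of 22277 probe sets. Per the submitters' processing notes, GCRMA was used, a method that corrects background by probe base composition, normalizes and summarises probes. Its version, the scale and any later step are not given in the sources used here, and the values were taken as linear intensity from their range. They were log2-transformed here with no pseudocount, so log2 differences come from the deposited intensities. After 62 control probe sets were set aside and the filter at the median was applied, the brightest single-gene probe set (by mean log2) stood for its gene. The annotation gave 1 symbol for 19064 probe sets, several for 1043 and none for 2108. All 75 member probe sets had the same symbol in RefSeq GRCh38.p14 by gene identifier. The functions lmFit and eBayes of limma 3.58.1 (R 4.3.3), and treat for the minimum fold, were run two-sided over all genes and, separately, over all probe sets, and were tested on simulated data. Pairs of members were compared with scipy 1.17.1; summaries and figures used pandas 2.3.3, numpy 2.4.6, matplotlib 3.10.9 and Python 3.11.15.

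The members, lists, filter, tests and the rule for named genes were chosen with earlier results of these data known. Values on every array are given for members past the threshold with a log2 difference of at least 0.5, for the brightest of each family, and for members with no called probe set that share a family or cluster with a called one. IFIT5, DDX60 and the dim members were chosen after their values were seen. Of each other list, up to 3 of the largest increases and decreases past the threshold are named, with IRF9, IRF1 and IRF7. The labels do not call the replicates separate cultures, so the p-values reflect only differences among these 6 arrays, possibly technical ones, and the number of arrays limits the precision.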

Additional observations from a re-analysis of the deposited data

How the results depend on the processing

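No paired analysis was possible because the replicate numbers of the arrays labelled PSMA (4 to 6) and control (1 to 3) are not shared. No called member changed sign under an alternative that gave it a value. Of 285 values of single members under other settings, 274 kept their side of the threshold, and the 11 that did not were of EIF2AK2, IFIT5, OASL, PLSCR1 and SP100. Of 204 such values with 1 array left out, 190 kept their side, 12 lost a call and 2 gained one, among HERC6 (gained without control replicate 2, limma adjusted p = 0.0262), IFIT5, OASL, PLSCR1 and SP100. Without probe sets of the _x_at and _s_at types, which removes genes, 10 members were lower and 4 higher, the median log2 difference was -0.35, and the calls were 10 outside the families, 5 among receptors and transducers and 3 in antigen presentation. Requiring all 6 arrays above the median left 2 members lower and 1 higher past the minimum fold of 1.5, 1 called IFITM gene and a median of -0.079. With no filter, 2 GBP genes were called. Taking the mean over probe sets gave 2 called IFIT genes and a median of -0.19. Quantile normalization and a pseudocount of 16 each gave 2 called IFIT genes and 0 called OAS genes. The pseudocount, and eBayes with trend and robust, each left 1 member higher past the minimum fold, and the second also gave 0 called OAS genes. Leaving out 1 array gave 1 to 2 members higher past the minimum fold (1 without control replicate 1 or PSMA replicate 6), 0 to 1 called OAS genes (1 only without PSMA replicate 6) and 1 to 2 called IFIT genes (2 without control replicate 2). Other than the fewer genes or probe sets that some settings leave, the cause was not tested. Shares of all genes past the plain threshold were computed only for the main setting, no filter and all 6 arrays above the median. The other counts of calls in this paragraph therefore have no such share beside them.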
